A study of Mus musculus with 16 samples.

Results

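Mouse embryonic stem cells (ESCs) labelled DGCR8 KO were compared with and without inhibition of mTOR. The libraries were chosen by their titles: 4 are titled as KO cells that were paused and 4 as KO cells that were not, which makes 8 of the 16 libraries of the series. Paused cells were kept in what the labels call mTORi culture, the others under normal ESC culture conditions. The labels put both at day 2 and give 800000 cells for each sample. The other 8 libraries, 4 of WT cells in normal culture and 4 of paused WT cells, entered the shared estimate of spread and the tests of whether the response differed between genotypes. The labels name neither the inhibitor nor its dose, nor the deleted part of Dgcr8, nor whether the KO line is a single clone. They do not say that the libraries of a group came from separate cultures, so each p-value speaks for the spread among the libraries at hand, and that spread may be only technical.

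The kinase mTOR couples growth to nutrients and growth factors. When active it promotes translation, the making of ribosomes, lipids and nucleotides, and glycolysis, and it holds back autophagy and the lysosomal transcription factors of the TFE family. Inhibiting it puts ESCs and blastocysts into a slow, reversible state that resembles embryonic diapause, here called paused. Dgcr8 binds RNA beside the nuclease Drosha, and without it primary microRNA transcripts are not cut, so that ESCs lack canonical microRNAs, keep self-renewing and are known for slow passage from G1 to S phase. Both groups compared here carry the same genotype label, and they differ in culture.

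The 8 libraries held 88377380 to 116646028 estimated counts. On a principal component analysis of these libraries the first component held 93.5% of the variance and separated the cultures. Dgcr8 RNA (250 CPM in normal and 181 CPM in paused cells) was not low, and since the deleted part is not given its level checks nothing. All 10 ESC markers passed the filter on low counts, with summed levels of 6551 to 6771 CPM in normal and 6635 to 7021 CPM in paused libraries. Of 14 markers of fibroblasts or feeder cells, 6 (Col3a1, Postn, Twist2, Dcn, Lum and S100a4) were at or near 0, with at most 8 counts in a library. The other 8 passed the filter, with Fbln1 at 3884 to 5101 counts, Thy1 at 1778 to 3115, Pdgfrb at 676 to 1053 and Loxl1 at 510 to 738, and Col1a1 and Thy1 fell while 0 rose. The list summed to 85.5 to 102 CPM in normal and 75.5 to 83.3 CPM in paused libraries, and the part of such cells in the results was not tested. The KO normal libraries varied in the processed pseudogene Gm19220, which took 4.29%, 3.84%, 0.517% and 2.06% of their counts against 1.28%, 0.883%, 0.950% and 1.62% in paused libraries. Values are CPM, counts brought to a common library size with TMM factors, given with the SD over 4 libraries. Changes are log2 fold changes of paused over normal cells with their SE. The verbs rose, fell and changed are used of an adjusted p under 0.05 in the quasi-likelihood test of edgeR.

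Inhibition of mTOR moved most of the transcriptome of the KO cells. Of 35968 genes with summed counts 18944 passed a filter on low counts and were tested, and of these 12727 changed (67.2%), of which 6522 rose (34.4%) and 6205 fell (32.8%). Most changes were small: 5363 of the changed genes moved by less than 0.5 on the log2 scale, and the median size was 0.58. By at least 1 on that scale, 1749 genes rose (9.23%) and 1152 fell (6.08%), and by at least 2 the counts were 283 and 251, and by at least 3 they were 48 and 77. The 4 paused libraries lay all above the 4 normal ones in 6196 genes (32.7%) and all below in 5933 (31.3%). Without spike-ins a level is a share of the library, and the split depends on the scaling: by library size alone, the median log2 fold change of all genes moved from 0.02 to 0.17 and 64.1% of the calls were rises, against 51.3% with TMM. Changes are therefore read against the median of all genes. In bulk RNA, fewer cells of a kind and less RNA per cell cannot be told apart.

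The largest rise among well-expressed genes was that of Eif4g3, which encodes eIF4GIII, a scaffold of the complex that binds the mRNA cap (ENSMUSG00000028760.16, chromosome 4, 137993022 to 138208508, GRCm38). Its level was 7.03, 7.97, 7.92 and 8.46 CPM in the 4 normal and 78.2, 73.7, 75.8 and 71.8 CPM in the 4 paused libraries, a log2 fold change of 3.25 ± 0.07 (adjusted p = 2.7e-16). The groups lay far apart and each was tight. Sox21, a repressive SoxB transcription factor, had 2.64, 2.42, 4.43 and 4.80 CPM in normal and 26.7, 34.7, 33.0 and 38.1 CPM in paused libraries (3.21 ± 0.22). Irs2, the adaptor that carries signals from the insulin and IGF1 receptors to PI3 kinase, went from 14.3 ± 1.18 to 76.8 ± 6.92 CPM (2.42 ± 0.06, adjusted p = 4.3e-15). Crebrf, a regulator of the CREB3 factors, rose from 14.4 ± 0.643 to 57.6 ± 1.61 CPM, and Zbtb10, a zinc-finger repressor of Sp factors, from 5.14 ± 0.655 to 20.9 ± 3.16 CPM. These 5 genes had no overlap between cultures.

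Nova2, a neuronal splicing factor, rose by 2.30 ± 0.07. Mapk8ip2, a JNK scaffold, rose by 2.18 ± 0.07, Slit3, a secreted guidance ligand, by 2.14 ± 0.11, and Adgrg1, an adhesion receptor, by 2.13 ± 0.17. Spred3, an inhibitor of Ras signalling, rose by 1.99 ± 0.07, Mturn, which promotes neural differentiation, by 2.29 ± 0.11, and Parm1, a mucin-like membrane protein, by 2.29 ± 0.18. Klhdc7a (2.73 ± 0.16), Ahnak2 (2.06 ± 0.25) and Ankrd45 (1.95 ± 0.17) complete the 15. In all 15 the paused libraries lay above the normal ones. The rule required that.

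**Figure D1:**
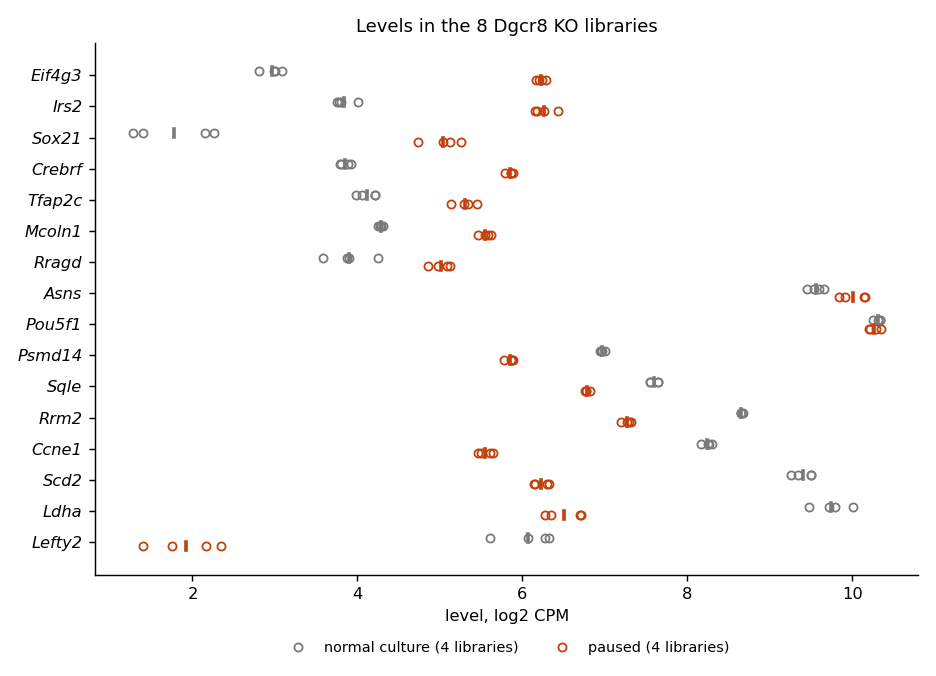
Level of 16 genes in each of the 8 Dgcr8 KO libraries on a log2 CPM axis, with open circles for libraries and bars for the means of the 4 normal (grey) and 4 paused (orange) libraries. The cultures stand apart for every gene shown but Pou5f1, with rises at the top and falls at the bottom.

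Lefty2, a secreted inhibitor of Nodal and itself a Nodal target, had 77.4, 66.9, 48.7 and 79.8 CPM in normal and 5.10, 2.65, 4.48 and 3.38 CPM in paused libraries, and its log2 fold change was -4.14 ± 0.29 (adjusted p = 1.6e-08). Its paralog Lefty1 fell from 26.8 ± 6.17 to 3.89 ± 1.63 CPM. Ldha, the lactate dehydrogenase subunit that favours lactate, had 1029, 888, 711 and 838 CPM in normal and 104, 77.6, 105 and 81.6 CPM in paused libraries (-3.24 ± 0.15, adjusted p = 9.0e-11). Scd2, which puts a double bond into fatty acids, had 721, 721, 612 and 649.8 CPM and 80.0, 70.6, 78.7 and 71.2 CPM (-3.17 ± 0.06). Every paused library was far below every normal library for these genes. The rule for the largest falls required that the groups not overlap. Ldha, Tpi1 and Pgk1 have processed pseudogenes, so that reads may be split between copies and their levels are uncertain.

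Ccne1, cyclin E1, which drives entry into S phase with Cdk2, had 304, 288, 307 and 314 CPM in normal and 48.6, 45.0, 50.02 and 44.2 CPM in paused libraries. It was 6.46-fold lower in paused cells (-2.69 ± 0.08, adjusted p = 7.2e-14). Slc16a3, the exporter of lactate, fell from 55.9 ± 13.9 to 8.96 ± 1.69 CPM. Tpi1, triose phosphate isomerase, fell by 2.99 on the log2 scale and Pgk1, phosphoglycerate kinase, by 1.91. Tuba4a, an alpha tubulin, fell from 248 ± 10.7 to 65.9 ± 7.32 CPM, and Sdc1, a heparan sulfate proteoglycan of the cell surface, from 29.6 ± 2.06 to 7.39 ± 0.715 CPM. Also lower were the imprinted growth inhibitor Phlda2 (-2.04 ± 0.14) and the extracellular chaperone Clu (-2.03 ± 0.09). Psmb10, a catalytic subunit of the immunoproteasome, fell from 30.0 ± 1.84 to 8.51 ± 1.16 CPM, and Idi1, an isomerase of the sterol pathway, from 182 ± 10.6 to 49.3 ± 2.40 CPM.

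Eef1a1, which brings aminoacyl-tRNA to the ribosome, had 7733, 7565, 7648 and 7582 CPM in normal and 10640.0, 10550.0, 11320.0 and 10520.0 CPM in paused libraries (0.50 ± 0.03), the largest gain in CPM by the rule. Eef2, the translocase, rose from 3633 ± 137 to 4797 ± 160.0 CPM, the ribosome-bound scaffold Rack1 from 1564 ± 38.6 to 2037 ± 54.4 CPM, and fibronectin (Fn1) from 1591 ± 93.5 to 2614 ± 165 CPM. Filamin A (Flna) rose from 735 ± 35.9 to 1328 ± 52.6 CPM, the glucose transporter Slc2a3 from 641 ± 87.8 to 1122 ± 53.9 CPM, and Zfp57, which guards imprinted methylation, from 446 ± 6.15 to 855 ± 18.9 CPM. The largest loss was that of Pkm, pyruvate kinase, with 4189, 3819, 3424 and 3708 CPM in normal and 1699, 1427, 1683 and 1436 CPM in paused libraries (-1.28 ± 0.07). Ptma, a small acidic nuclear protein, fell from 4665 ± 171 to 2560.0 ± 132 CPM, the nucleolar proteins Ncl and Npm1 from 4374 ± 76.1 to 2772 ± 125 CPM and from 3117 ± 68.1 to 2064 ± 82.8 CPM, and the poly(A)-binding protein Pabpc1 from 3149 ± 43.3 to 1746 ± 76.2 CPM. The mitochondrial chaperonin Hspd1 fell from 2208 ± 28.7 to 973 ± 41.0 CPM. Many of these have processed pseudogenes, and Eef1a1, Npm1 and Ptma are uncertain for that reason. With scaling by library size alone these genes kept their directions.

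Among 11 subunits of mTORC1 and mTORC2, 4 rose and 0 fell, with a median of 0.10. By library size alone 9 rose (median 0.25), with protein-coding genes alone 7, and without normal replicate 1 only 2. Here and for the gene groups that follow, the background is that 34.4% of all genes rose and 32.8% fell, with a median of 0.02. Rictor, the defining subunit of mTORC2, rose from 55.3 ± 2.63 to 90.3 ± 4.12 CPM, while Mtor itself had 128, 138, 128 and 124 CPM in normal and 143, 139, 136 and 135 CPM in paused libraries and did not pass the test (adjusted p = 0.0788). With library size as the only scaling, Mtor was higher by 0.25 (adjusted p = 2.4e-04), and it also passed without normal replicate 2 (0.13, adjusted p = 0.0253), with protein-coding genes alone (0.12, adjusted p = 0.0259) and in the fit of only the KO libraries with the replicate block (0.081, adjusted p = 0.0467). Akt1, a kinase upstream of mTORC1, fell from 44.5 ± 1.34 to 20.2 ± 2.16 CPM, and Ddit4, a stress-induced mTORC1 inhibitor, from 56.4 ± 11.8 to 23.7 ± 4.72 CPM. Of 20 upstream regulators, 6 rose and 8 fell, and by library size alone 8 rose and 5 fell. They include Pdk1 by its symbol, though the mouse gene of that symbol is a pyruvate dehydrogenase kinase. Of 29 genes of amino acid sensing at the lysosome, 11 rose and 15 fell, or 12 and 11 by library size alone. There the Rag GTPase Rragd rose from 15.1 ± 2.89 to 32.3 ± 2.72 CPM, the FLCN partner Fnip1 from 27.2 ± 1.04 to 56.3 ± 1.93 CPM and Flcn from 43.6 ± 2.00 to 61.5 ± 0.734 CPM, while the arginine sensor Castor1 fell from 15.6 ± 1.31 to 6.06 ± 0.827 CPM.

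Receptors and adaptors of insulin and IGF signalling rose more often than they fell, 7 against 4 of 14, or 8 against 1 by library size alone. Igf1r rose from 44.3 ± 1.10 to 91.9 ± 5.47 CPM and Insr from 11.3 ± 0.924 to 20.3 ± 0.976 CPM. Irs1 rose too, from a low level, from 0.443 ± 0.0781 to 2.22 ± 0.243 CPM. Among 26 FoxO factors and their known targets, 13 rose and 6 fell, with a median of 0.23. The ubiquitin ligase Fbxo32 rose from 1.13 ± 0.179 to 3.13 ± 0.548 CPM, whereas the pseudokinase Trib2 fell from 1.05 ± 0.296 to 0.351 ± 0.119 CPM. Pik3ip1, an inhibitor of PI3 kinase, did not pass the test (2.99 to 2.76 CPM, -0.11 ± 0.12). Grb10, an mTORC1 substrate that inhibits insulin signalling, fell from 435 ± 50.5 to 276 ± 46.6 CPM, a call that leaving out normal replicate 2, paused replicate 1 or paused replicate 3 ended (adjusted p of 0.0507, 0.0546 and 0.0553), as did scaling by library size alone (adjusted p = 0.0681). Ulk1, the kinase that starts autophagy and is held back by mTORC1, rose from 254 ± 6.85 to 455 ± 21.4 CPM.

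Transcripts for translation initiation fell broadly, with Eif4g3 among the few that rose. Of 19 cap-binding factors and their inhibitors, 3 rose and 12 fell, or 5 and 11 by library size alone. Eif4e, the cap-binding protein, had 182, 178, 187 and 189.5 CPM in normal and 119, 117, 123 and 117 CPM in paused libraries (-0.63 ± 0.03). Its inhibitor Eif4ebp1 fell from 436 ± 13.7 to 357 ± 22.1 CPM, and Larp1b, a relative of the repressor of ribosomal protein mRNAs, from 6.62 ± 0.506 to 2.08 ± 0.254 CPM. Of 28 other initiation factors, 25 fell and 1 rose, with a median of -0.53. Among these the translation factor Eif5a fell from 1217 ± 31.1 to 617 ± 49.8 CPM, the eIF2 subunit Eif2s3x from 439.8 ± 8.99 to 229 ± 6.06 CPM and Eif6, a factor of ribosomal subunit joining, from 211 ± 4.87 to 110.1 ± 4.87 CPM. Of 11 elongation and release factors, 4 rose and 7 fell, among the latter Eef1d (-1.06 ± 0.05) and the release factor Gspt1 (-0.83 ± 0.04).

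Genes that build ribosomes fell while those of the cytosolic ribosome itself were split. Of 52 ribosome biogenesis genes 47 fell and 1 rose (41 and 3 by library size alone), with a median of -0.48. Nop16 fell from 76.5 ± 1.35 to 30.4 ± 1.06 CPM, the snoRNP subunit Nop10 from 91.2 ± 3.78 to 41.0 ± 4.21 CPM and the nucleolar helicase Ddx21 from 404 ± 9.87 to 182 ± 9.89 CPM. Of 80 cytosolic ribosomal protein genes, 26 rose and 25 fell, with a median of 0.02. By library size alone, 48 rose and 15 fell. Their unscaled share of all counts was 5.41% ± 0.15 in normal and 6.08% ± 0.18 in paused libraries (SD, n = 4; exact permutation test, two-sided, p = 0.0286, the smallest that 4 against 4 allows, and 0.0762 after adjustment over 8 measures). The members that fell most were Rps27l (-1.15 ± 0.03), Rps13 (-1.07 ± 0.05) and Rpl22l1 (-0.94 ± 0.08), and ribosomal protein genes have many processed pseudogenes. Of 36 nuclear pore and transport genes 33 fell and 1 rose (25 and 2 by library size alone), with Ran from 1231 ± 29.9 to 611 ± 22.8 CPM and its exchange factor Rcc1 from 209 ± 4.93 to 84.4 ± 3.75 CPM among those that fell.

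Genes of amino acid supply moved in both directions. Of 28 genes of the ATF4 response, which is known to follow amino acid shortage and mTORC1 activity, 11 fell and 5 rose, with a median of -0.11. Scaled by library size alone, 6 fell and 7 rose, and leaving out normal replicate 2 or 3 or paused replicate 1 or 3 lowered the falls to 6 or 7. In WT cells, where 60.7% of all genes changed (33.3% rose and 27.5% fell), 24 of the same genes fell and 0 rose, with a median of -1.18. The difference is given as the KO minus the WT change, and over all genes its test was positive for 17.4% and negative for 24.5%. It was positive for 24 of these 28 and negative for 0. Asns, asparagine synthetase, had 742, 808, 772 and 698 CPM in normal and 918, 1133, 960.5 and 1137 CPM in paused libraries (0.46 ± 0.09, adjusted p = 1.7e-04). Psat1 of serine synthesis fell from 838 ± 42.1 to 446 ± 47.0 CPM and Mthfd2 of mitochondrial folate metabolism from 129 ± 6.66 to 71.4 ± 8.12 CPM. Their WT changes were -2.35 ± 0.15 and -2.72 ± 0.08, and the differences 1.44 ± 0.21 and 1.87 ± 0.10. Chac1, which degrades glutathione, did not pass the test in KO cells (0.08 ± 0.10) and fell in WT cells (-2.79 ± 0.12), a difference of 2.87 ± 0.16. Of 22 cytosolic aminoacyl-tRNA synthetase genes, 17 fell and 1 rose, with Hars (-0.72 ± 0.03) moving most. Of 28 amino acid transporters 12 rose and 10 fell, the glutamate carrier Slc1a1 from 5.90 ± 0.296 to 13.04 ± 0.761 CPM among the rises and Slc7a7 from 139 ± 9.88 to 80.1 ± 2.50 CPM among the falls.

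From RefSeq promoter windows of build GRCm38.p6, 250 bases before the annotated start were read, in the direction of the gene, and capitals mark the letters TGATGNAA of the C/EBP-ATF composite element, searched on both strands. The windows searched for this and the following motifs also include the 50 bases after the start. For each motif the promoter shown is that of the changed list member with the largest change with at least 1 CPM that holds it before the start, a choice made after the values were seen. Genes of a single chromosome were left out of this choice. A match is a description of letters. This motif was in 9 of the 24 windows found for the ATF4 list (37.5%) and in 2.61% of all 12973 windows of tested genes. The Asns window, shown here (chr6:7693210-7693459, minus strand), has it 23 bases before the start.
Asns: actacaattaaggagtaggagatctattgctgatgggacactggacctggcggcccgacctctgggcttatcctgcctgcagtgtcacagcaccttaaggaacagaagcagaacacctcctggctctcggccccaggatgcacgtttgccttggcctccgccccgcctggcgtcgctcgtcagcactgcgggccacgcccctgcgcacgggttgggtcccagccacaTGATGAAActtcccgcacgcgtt

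Genes of lipid synthesis fell almost as a group. Of 27 genes of cholesterol synthesis and uptake, 26 fell and 1 rose, with a median of -0.97. Sqle, squalene epoxidase, had 200.5, 201, 187 and 187 CPM in normal and 109, 113, 109 and 108 CPM in paused libraries (-0.82 ± 0.05). Dhcr7, the last reductase of the pathway, had 87.6, 80.0, 67.2 and 70.7 CPM and 26.7, 25.6, 26.8 and 24.7 CPM (-1.56 ± 0.07). The cultures were cleanly separated for both. The sterol-sensing factors themselves fell less, Srebf1 from 109 ± 1.83 to 74.9 ± 0.698 CPM and Srebf2 from 288 ± 9.30 to 247 ± 7.72 CPM. With library size as the only scaling, the fall of Srebf2 did not pass the test (adjusted p = 0.154). Of 21 genes of fatty acid synthesis, 15 fell and 1 rose (14 and 4 by library size alone), among them Acaca, which makes malonyl-CoA, from 140.2 ± 5.58 to 41.1 ± 2.10 CPM and Scd1 from 161 ± 12.4 to 46.3 ± 2.83 CPM. Fatty acid oxidation was split, with 6 of 20 higher and 7 lower, or 13 and 5 by library size alone.

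The fall of sterol genes was larger in KO than in WT cells. In WT cells 17 of the 27 fell and 3 rose, with a median of -0.27, and the test of the difference was negative for 25 genes and positive for 1. Dhcr7 fell by less in WT cells (-0.72 ± 0.07), and the difference was -0.83 ± 0.10 (adjusted p = 2.2e-06). For Sqle the difference was -0.52 ± 0.07, and for Scd2, of fatty acid synthesis, -2.02 ± 0.07. Scd1 fell in both genotypes, and a difference between them was not detected (-0.10 ± 0.17). The sterol element TCACNCCAC was in 1 of 19 windows found for the list (5.26%) and in 1.13% of all windows. That window belongs to Hmgcs1, HMG-CoA synthase, which fell from 245 ± 11.5 to 112 ± 6.20 CPM, and its element lies 137 bases before the start (chr13:119690101-119690350, plus strand). The letters CCAAT, the box of the NF-Y factor, were in 15 of the 19 (78.9%) and in 38.8% of all windows.
Hmgcs1: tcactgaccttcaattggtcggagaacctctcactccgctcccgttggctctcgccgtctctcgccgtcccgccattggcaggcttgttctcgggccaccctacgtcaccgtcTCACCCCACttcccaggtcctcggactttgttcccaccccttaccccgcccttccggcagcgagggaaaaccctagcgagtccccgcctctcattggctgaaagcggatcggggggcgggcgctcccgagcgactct

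Genes of glycolysis fell, while its glucose transporters moved apart. Of 24 genes, 20 fell and 3 rose, with a median of -0.93, and besides Ldha, Tpi1, Pgk1, Pkm and Slc16a3 described above the fall included Hk2, hexokinase, from 242 ± 11.4 to 195 ± 3.93 CPM. The transporter Slc2a3 rose as given above, and Slc2a1, named after its values were seen, fell from 358 ± 51.5 to 152 ± 4.07 CPM. Of 20 other targets of hypoxia-inducible factor (HIF), 14 fell and 3 rose, or 13 and 5 by library size alone. Egln3, an oxygen-sensing hydroxylase, fell from 10.5 ± 3.31 to 3.02 ± 0.370 CPM, Bhlhe40, a transcriptional repressor of the circadian clock, from 11.1 ± 4.09 to 3.26 ± 0.260 CPM, and Bnip3, a receptor of mitophagy, from 26.5 ± 8.55 to 10.4 ± 0.842 CPM. Pdk1, the pyruvate dehydrogenase kinase, fell from 277 ± 3.96 to 155 ± 6.72 CPM. Txnip and Arrdc4, arrestin-like sensors of sugar that limit glucose uptake, rose from 203 ± 16.9 to 376 ± 27.5 CPM and from 35.01 ± 1.03 to 53.3 ± 0.850 CPM. The hypoxia element ACGTGC was in 8 of 23 windows of the glycolysis list (34.8%), in 8 of 14 of the other HIF targets (57.1%) and in 7.61% of all windows. It can overlap the E-box CACGTG used below. The Ldha window (chr7:46845554-46845803, plus strand) holds it 35 bases before the start on the other strand, so that the capitals read as its reverse complement.
Ldha: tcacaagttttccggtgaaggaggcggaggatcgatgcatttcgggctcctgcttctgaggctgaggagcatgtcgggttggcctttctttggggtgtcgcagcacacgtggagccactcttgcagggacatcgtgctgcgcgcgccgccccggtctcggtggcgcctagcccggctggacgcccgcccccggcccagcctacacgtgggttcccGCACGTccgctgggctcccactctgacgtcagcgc

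Mitochondrial genes fell together, by moderate amounts. Of 78 mitochondrial ribosomal protein genes 72 fell and 2 rose, with 1 rise without normal replicate 2 or 3 or paused replicate 1 or 3 (median -0.50), and of 28 genes of import and chaperones 27 fell and 1 rose (median -0.60). Of 72 nuclear genes of the respiratory chain 59 fell and 3 rose (51 and 13 by library size alone), and of 26 genes of the tricarboxylic acid cycle 19 fell and 5 rose. Mrpl34 fell from 51.4 ± 2.70 to 19.0 ± 1.52 CPM, Mrps12 from 56.7 ± 2.00 to 23.6 ± 1.37 CPM, the import subunit Tomm5 from 68.0 ± 1.45 to 25.5 ± 1.68 CPM and prohibitin (Phb) from 398 ± 13.3 to 192 ± 12.2 CPM. Cytochrome c (Cycs) fell from 90.0 ± 2.17 to 32.5 ± 0.594 CPM, the ATP synthase ring genes Atp5g1 and Atp5g3 from 285 ± 5.87 to 137 ± 7.74 CPM and from 338 ± 10 to 136 ± 3.99 CPM, and citrate synthase (Cs) from 419 ± 9.18 to 217 ± 5.92 CPM. The mRNAs made inside mitochondria did not move as a block. Of 13, 6 fell and 3 rose, and only 1 rose without normal replicate 1 or 2 or paused replicate 4, or with no filter on low counts: mt-Atp6 fell from 2593 ± 179 to 1295 ± 74.1 CPM and mt-Co2 from 2177 ± 93.5 to 1235 ± 74.2 CPM, while mt-Co3 rose from 2364 ± 24.1 to 3073 ± 135 CPM. Their summed share of counts was 1.86% ± 0.15 in normal and 1.83% ± 0.13 in paused libraries (exact permutation test, two-sided, p = 0.743). These RNAs are read from long shared transcripts, and the part of poly(A) selection was not tested.

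Supplies for RNA, DNA and polyamines fell as well. Of 33 genes of the pentose phosphate pathway and nucleotide synthesis 30 fell and 1 rose (26 and 3 by library size alone), with a median of -0.63. Rrm2, the subunit of ribonucleotide reductase that limits deoxynucleotide supply, had 407, 400.3, 400.2 and 402 CPM in normal and 156, 154, 159 and 147 CPM in paused libraries (-1.39 ± 0.03, adjusted p = 1.2e-16). Each group was tight and they stood far apart. Prps2, which makes the activated ribose, fell from 69.0 ± 4.75 to 24.3 ± 3.89 CPM, and Nme1, a nucleoside diphosphate kinase, from 95.3 ± 5.98 to 34.98 ± 3.55 CPM. Of 12 polyamine genes 9 fell and 2 rose, among them ornithine decarboxylase (Odc1) from 875 ± 22.3 to 463 ± 20.4 CPM and Amd1 from 211 ± 8.31 to 109 ± 4.91 CPM.

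Protein turnover moved in opposite directions for proteasome and lysosome. All 36 proteasome genes tested fell, by 0.11 to 1.12 on the log2 scale, with a median of -0.64. By library size alone, 34 fell and 0 rose. Psmd14, the deubiquitinase of the lid, had 122, 124, 129 and 125 CPM in normal and 59.3, 58.0, 58.8 and 54.6 CPM in paused libraries (-1.12 ± 0.04), and Psmd7 fell from 259.8 ± 6.41 to 124 ± 5.35 CPM. The summed level of the 36 was 8192 to 8470.4 CPM in normal and 5353 to 5622 CPM in paused libraries. Chaperones fell too, with 19 of 23 cytosolic heat shock genes lower and 1 higher (17 and 4 by library size alone). Among 22 genes of the unfolded protein response of the endoplasmic reticulum, 15 were lower and 3 higher (15 and 5 by library size alone). Hspa1b fell from 12.8 ± 0.359 to 3.48 ± 0.128 CPM (its near-identical copy Hspa1a makes both uncertain) and Hyou1 from 425 ± 9.55 to 248 ± 9.42 CPM.

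Of 46 genes for lysosomal hydrolases and membrane proteins, 28 rose and 7 fell, with a median of 0.26. Mcoln1, the calcium channel of the lysosome, had 19.4, 18.9, 19.5 and 19.9 CPM in normal and 44.0, 47.8, 46.9 and 49.0 CPM in paused libraries (1.27 ± 0.04), with no overlap. Ctsa, a protective carboxypeptidase, rose from 49.0 ± 0.618 to 113 ± 6.71 CPM and the hydrolase Idua from 3.15 ± 0.265 to 8.39 ± 0.407 CPM. By library size alone, 33 of the 46 rose and 4 fell. Of 17 V-ATPase subunits 8 rose and 6 fell, or 9 and 2 by library size alone. Of 46 autophagy genes 21 rose and 16 fell: Wipi1, which binds forming autophagosomes, rose from 9.42 ± 1.64 to 25.2 ± 2.63 CPM and the kinase Ulk2 from 1.77 ± 0.195 to 6.03 ± 0.549 CPM, while Atg9b, a lipid scramblase, fell from 3.53 ± 0.107 to 0.562 ± 0.100 CPM. Of the 4 TFE factors, a family that drives lysosomal genes, 1 rose and 1 fell. Their log2 fold changes ran from -3.27 to 0.39, with a median of -0.005. Tfe3 rose from 109.8 ± 4.90 to 144 ± 5.05 CPM, and Tfeb did not pass the test (50.5 to 49.3 CPM). The E-box CACGTG, which these factors bind, was in 12 of 37 windows of the lysosomal list (32.4%) and in 9.47% of all. The Mcoln1 window (chr8:3500269-3500518, plus strand) has it at 71 and 45 bases before the start.
Mcoln1: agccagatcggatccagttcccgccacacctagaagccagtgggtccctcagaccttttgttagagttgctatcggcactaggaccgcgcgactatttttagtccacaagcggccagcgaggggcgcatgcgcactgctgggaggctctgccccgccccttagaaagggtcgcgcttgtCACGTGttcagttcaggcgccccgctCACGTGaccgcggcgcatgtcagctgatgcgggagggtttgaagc

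**Figure D2:**
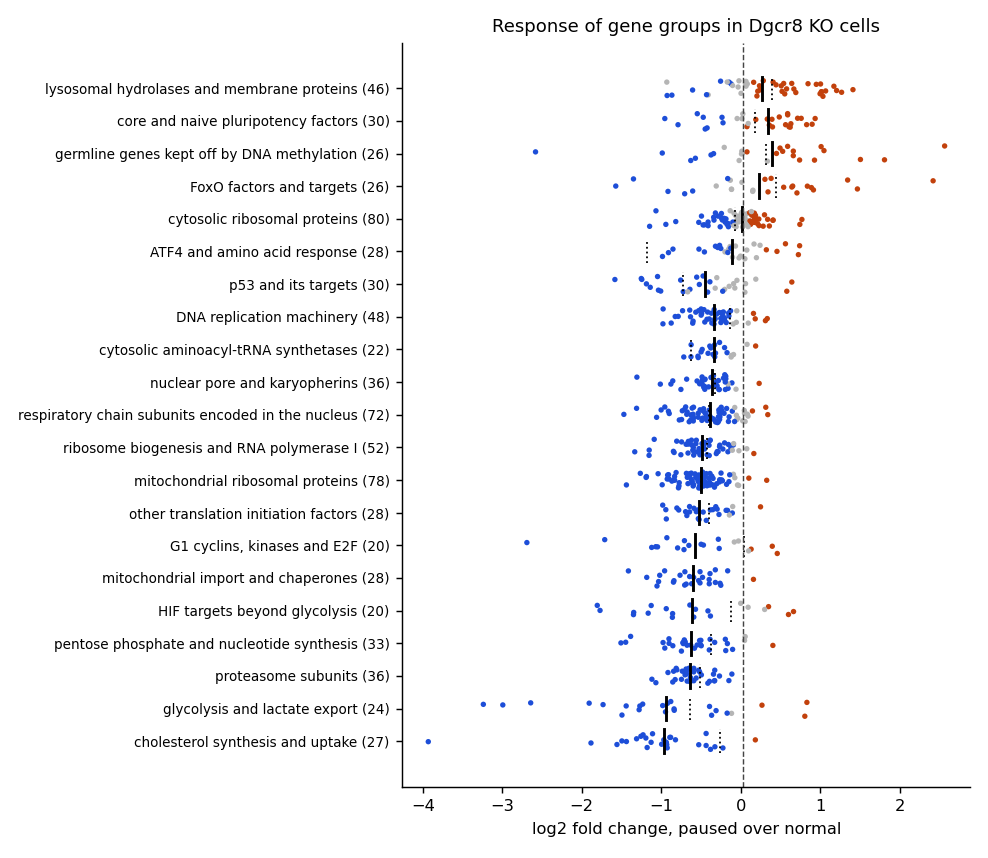
Log2 fold change of paused over normal KO cells for the members of 21 gene lists (number tested in brackets), where each point is a gene, orange higher, blue lower and grey not past the test, with vertical jitter. Solid bars are medians in KO cells, dotted bars medians of the same genes in WT cells, and the dashed line the median of all genes (0.02).

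Cell cycle genes fell, and those of G1 had the lowest median. Of 20 G1 cyclins, kinases and E2F genes 14 fell and 3 rose, with a median of -0.57. Besides Ccne1, the D cyclins fell, Ccnd1 from 193 ± 16.1 to 92.0 ± 10.6 CPM and Ccnd2 from 20.6 ± 4.43 to 6.29 ± 0.927 CPM, and so did Cdc25a, a phosphatase that activates Cdk2, from 157 ± 2.04 to 72.4 ± 1.62 CPM. In WT cells the same 20 genes had 7 rises and 9 falls, with a median of 0.05, and the difference between genotypes was negative for 16 and positive for 0. For Ccne1 it was -1.55 ± 0.11 and for Ccnd2 -1.23 ± 0.19. Of 48 DNA replication genes 40 fell and 4 rose, among them Pcna from 365 ± 2.26 to 199 ± 9.53 CPM, Rpa2 from 169 ± 3.98 to 85.7 ± 5.92 CPM and Cdc6, a loader of the replicative helicase, from 133 ± 2.50 to 67.7 ± 4.35 CPM. Of 41 genes of G2 and mitosis 27 fell and 8 rose, or 17 and 13 by library size alone. Of 14 CDK inhibitors and Rb family genes 5 rose and 2 fell. Cdkn1b, p27, which binds cyclin E complexes, rose from 46.3 ± 3.35 to 86.3 ± 6.17 CPM and the imprinted inhibitor Cdkn1c fell from 12.5 ± 2.40 to 4.37 ± 1.40 CPM. Cdkn1a (p21) and Rbl2 did not pass the test (-0.14 ± 0.13 and 0.13 ± 0.14).

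The E2F motif TTTNNCGC was in 16 of 39 windows of the replication list (41.0%), in 7 of 15 of the G1 list (46.7%) and in 7.95% of all windows. It is shown for Cdc6 (chr11:98907901-98908150, plus strand), where it lies on the other strand 138 bases before the start.
Cdc6: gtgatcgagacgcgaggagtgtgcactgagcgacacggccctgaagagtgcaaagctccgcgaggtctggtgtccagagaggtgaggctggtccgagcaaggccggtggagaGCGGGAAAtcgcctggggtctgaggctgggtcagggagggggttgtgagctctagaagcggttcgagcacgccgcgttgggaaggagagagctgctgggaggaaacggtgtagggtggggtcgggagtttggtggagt

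Stress and death pathways showed no common rise. Of 30 p53 targets, 17 fell and 2 rose, with a median of -0.44, among them the adhesion protein Perp from 19.2 ± 1.58 to 8.11 ± 0.375 CPM and Zfp365 from 22.7 ± 0.720 to 7.57 ± 0.754 CPM. Of 27 BCL-2 family and caspase genes, 11 rose and 12 fell, or 11 and 8 by library size alone. Hrk, a BH3-only activator of cell death, rose from 18.4 ± 1.83 to 47.3 ± 6.81 CPM, while the pore former Bak1 fell from 140.5 ± 4.68 to 62.0 ± 0.729 CPM and Bok from 21.1 ± 0.992 to 9.56 ± 0.636 CPM. Of 22 NRF2 antioxidant genes 11 fell and 4 rose, or 7 and 8 by library size alone, with G6pdx, the entry enzyme of the pentose phosphate pathway, falling from 68.0 ± 1.53 to 34.6 ± 2.73 CPM. Of 27 genes of interferon and double-stranded RNA sensing, 7 rose and 9 fell, or 10 and 7 by library size alone.

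The core pluripotency factors were still abundant, and several naive factors rose. Pou5f1 had 1296, 1214, 1288 and 1274 CPM in normal and 1251, 1176, 1303 and 1188 CPM in paused libraries and did not pass the test. Scaled by library size alone, it was higher by 0.11 (adjusted p = 0.0174). Sox2 rose from 608 ± 19.06 to 798 ± 13.9 CPM, Nanog from 536 ± 14.6 to 688 ± 17.8 CPM, Esrrb from 783 ± 22.7 to 1159 ± 15.8 CPM and Klf4 from 407 ± 19.3 to 669 ± 23.7 CPM. Tbx3, a target of LIF signalling, rose from 297 ± 13.2 to 529 ± 22.6 CPM, and Nr0b1 from 87.2 ± 11.3 to 163 ± 16.6 CPM. Of 30 core and naive factors 18 rose and 8 fell (22 and 5 by library size alone), with a median of 0.35. Dppa5a fell from 1005 ± 57.8 to 688 ± 53.6 CPM and the Nodal co-receptor Tdgf1 from 531 ± 31.0 to 383 ± 19.4 CPM.

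Factors of the formative and primed states fell more often than they rose, 12 against 5 of 22. Lef1, an effector of Wnt signalling, fell from 8.09 ± 3.06 to 1.98 ± 0.638 CPM, and Dnmt3a, a methyltransferase that acts on unmethylated DNA, from 193 ± 7.75 to 77.8 ± 9.02 CPM. Dnmt3b fell with overlapping libraries, from 89.5 ± 10.6 to 69.7 ± 9.52 CPM, and by library size alone the fall did not pass the test (adjusted p = 0.164). Leaving out normal replicate 3 or 4 or paused replicate 1, 2 or 4 also ended it (adjusted p from 0.0545 to 0.0895). Also lower was the intermediate filament Nes from 20.01 ± 0.792 to 6.25 ± 0.162 CPM. Otx2, an early organiser of the formative state, had 15.03, 10, 11.2 and 17.6 CPM in normal and 34.6, 33.9, 45.0 and 38.8 CPM in paused libraries (1.501 ± 0.204), and Zic2 rose from 16.9 ± 3.22 to 52.1 ± 5.202 CPM. The cultures did not overlap for Otx2. In WT cells Lef1 did not pass the test (0.16 ± 0.22), a difference of -2.19 ± 0.35.

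Markers of other lineages moved in both directions. Of 12 neural markers tested 6 rose and 3 fell, with Sox21 and Cux2 (1.26 ± 0.09) rising and Nes falling. Of 13 trophoblast markers 6 rose and 4 fell, of 11 mesoderm markers 3 rose and 4 fell, and of 12 endoderm markers 1 rose and 4 fell. The endoderm markers Afp and Ttr and the trophoblast marker Tpbpa had at most 2 counts in a library. Of 9 markers of primordial germ cells 6 rose and 3 fell. Tfap2c, an AP-2 factor of germ cells and trophoblast, had 18.5, 16.6, 15.8 and 18.5 CPM in normal and 39.1, 35.2, 43.6 and 40.6 CPM in paused libraries (1.19 ± 0.08). It fell in WT cells (-1.27 ± 0.08), a difference of 2.46 ± 0.11 (adjusted p = 1.0e-10). Prdm1, a repressor needed for germ cell fate, rose from 8.26 ± 1.16 to 16.4 ± 0.993 CPM. The 3 germ cell markers that fell were Nanos3, Dnd1 and Dppa3, named after their values were seen. Nanos3 had 277 to 372 counts in normal and 160 to 226 in paused libraries. Dnd1 had 1383 to 1505 and 1066 to 1295, and Dppa3 28 to 59 and 17 to 29. Summed levels of the neural markers were 190 to 218 CPM in normal and 196 to 213 CPM in paused libraries. Those of endoderm were 262 to 314 CPM in normal and 203 to 222 CPM in paused libraries, and those of mesoderm 11.9 to 15.4 and 15.6 to 16.9 CPM. Sums of the trophoblast markers were 52.3 to 56.3 CPM in normal and 91.3 to 94.5 CPM in paused libraries. Those of the germ cell markers were 293 to 312 CPM in normal and 465 to 474 CPM in paused libraries. Most of the germ cell sum was Kit, a receptor named after its values were seen, which rose from 206 ± 11.7 to 314 ± 9.85 CPM. Tfap2c, Krt8 and Krt18 held the most counts of the trophoblast sum. Other trophoblast markers were lower in paused libraries. Cdx2 had 24 to 50 counts in normal and 7 to 19 in paused libraries, Gata2 112 to 192 and 82 to 107, and Hand1 39 to 55 and 11 to 22. Apart from Tfap2c, these trophoblast markers were also named after their values were seen. The part of any other cell type in these changes was not tested.

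Germline genes that DNA methylation keeps off in somatic cells rose more often than they fell, 14 against 6 of 26, with a median of 0.39. Dazl, an RNA-binding protein of germ cells, had 3.10, 2.52, 2.35 and 2.90 CPM in normal and 10.8, 9.88, 8.73 and 8.72 CPM in paused libraries (1.81 ± 0.14). Sycp2 of the synaptonemal complex rose from 1.17 ± 0.131 to 6.93 ± 0.835 CPM and Taf7l, a germ cell subunit of the general factor TFIID, from 2.25 ± 0.204 to 6.41 ± 0.718 CPM. All 4 paused libraries were above all normal ones for these genes. Of 14 genes that write, remove or guide DNA methylation 5 rose and 7 fell. Uhrf1, which guides maintenance methylation, fell from 537 ± 7.78 to 291 ± 18.7 CPM, as did Dnmt3a above, and Zfp57 rose as given above. DNA methylation itself was not measured. The E-box CACGTG was in 12 of 24 windows of this list (50%), against the 9.47% of all windows given above. Taf7l is shown, with the match 49 bases before the start (chrX:134476491-134476740, minus strand).
Taf7l: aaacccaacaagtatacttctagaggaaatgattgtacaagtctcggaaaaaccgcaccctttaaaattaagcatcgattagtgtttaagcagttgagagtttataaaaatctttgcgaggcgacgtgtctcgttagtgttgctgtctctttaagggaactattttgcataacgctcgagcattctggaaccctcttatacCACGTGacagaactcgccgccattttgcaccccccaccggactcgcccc

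Polycomb subunits rose more often than they fell, 14 against 7 of 29. Cbx8, a chromodomain protein that binds the Polycomb mark on histone H3, rose from 0.770 ± 0.107 to 1.82 ± 0.268 CPM. Of 38 subunits of SWI/SNF, NuRD and MLL complexes 16 rose and 13 fell, with Chd3 of NuRD rising from 11.8 ± 0.712 to 28.2 ± 2.37 CPM. Of 31 imprinted genes 12 rose and 12 fell, or 14 and 8 by library size alone. Among them Dio3, a deiodinase, rose from 1.31 ± 0.442 to 7.30 ± 1.09 CPM, and Zrsr1 had 1477, 2476, 187 and 1212 CPM in normal and 488, 233, 386 and 457 CPM in paused libraries, and the groups overlapped (-1.77 ± 0.59, adjusted p = 0.0178). Leaving out normal replicate 2 or paused replicate 2 ended this call (adjusted p of 0.0691 and 0.0518), as did the replicate block (0.163) and the fit of only the KO libraries without or with that block (0.0659 and 0.281). Of 19 genes of microRNA machinery 5 rose and 8 fell, or 9 and 3 by library size alone. With library size as the only scaling, the fall of Drosha (-0.16 ± 0.05) did not pass the test (adjusted p = 0.937). Lin28b, which blocks let-7 maturation, fell from 14.9 ± 0.899 to 6.95 ± 0.681 CPM.

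Nodal itself rose from 38.0 ± 1.84 to 53.5 ± 0.509 CPM while Lefty1 and Lefty2 fell, and of 23 genes of the Nodal pathway 10 rose and 10 fell, or 12 and 6 by library size alone. In WT cells neither Lefty passed the test, and the differences were -2.94 ± 0.41 and -4.45 ± 0.38. Of 40 genes of FGF and ERK signalling 9 rose and 23 fell, or 12 and 15 by library size alone. The ERK phosphatase Dusp4 rose from 3.19 ± 0.649 to 12.8 ± 1.09 CPM and the receptor Fgfr3 fell from 2.21 ± 0.433 to 0.491 ± 0.0583 CPM. Of 24 genes of the BMP pathway 9 rose and 9 fell, or 10 and 4 by library size alone. The inhibitor Smad6 rose from 6.98 ± 0.699 to 17.8 ± 1.26 CPM and the target Id2 from 7.54 ± 2.57 to 15.99 ± 1.29 CPM. Of 41 Wnt genes 11 rose and 13 fell, or 17 and 8 by library size alone, with Porcn, which lipidates Wnt ligands, rising from 13.2 ± 0.641 to 30.0 ± 2.72 CPM. Axin2, a feedback target of Wnt signalling, rose by 0.22 ± 0.09 in KO and 1.39 ± 0.09 in WT cells, a difference of -1.17 ± 0.13. The KO rise of Axin2 (adjusted p = 0.0452) ended when any of 6 libraries, all but paused replicates 2 and 4, was left out (adjusted p from 0.0592 to 0.145). It also ended with RLE size factors (adjusted p = 0.0519), no filter on low counts (0.0871), length-scaled counts (0.0523) and the replicate block (0.0595). Of 23 genes of LIF and JAK/STAT3 signalling 8 rose and 5 fell, against 15 and 4 in WT cells, and the difference was negative for 14 and positive for 2.

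Of 22 genes of the Hippo pathway 12 rose and 10 fell. Lats2, the kinase that restrains YAP, rose from 5.87 ± 0.884 to 22.3 ± 1.01 CPM and Amotl2, which holds YAP at junctions, from 72.1 ± 9.36 to 200.5 ± 16.5 CPM. The Hedgehog antagonist Hhip rose in KO cells (1.45 ± 0.16) and fell in WT cells (-1.08 ± 0.18). In the Myc network Mycn rose from 123 ± 14.6 to 175 ± 9.89 CPM and the antagonist Mnt from 61.8 ± 1.25 to 101 ± 3.08 CPM. Myc fell with overlapping libraries, 67.0, 69.6, 86.9 and 91.3 CPM in normal and 61.5, 46.4, 69.4 and 52.9 CPM in paused libraries (-0.45 ± 0.15, adjusted p = 0.0134), and by library size alone it did not pass the test (adjusted p = 0.0747). Myc rose in WT cells (0.68 ± 0.14).

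At the cell surface, 15 of 28 collagen, laminin and integrin genes rose and 7 fell, among them the basement membrane genes Hspg2 from 368 ± 30.4 to 729.7 ± 66.3 CPM and Col18a1 from 413 ± 19.2 to 785 ± 49.1 CPM. Of 25 cadherin and junction genes 6 rose and 6 fell, or 10 and 3 by library size alone and 6 and 3 without paused replicate 4, with the desmosomal genes Dsg2 and Dsc2 rising from 61.0 ± 5.57 to 142 ± 16.4 CPM and from 1.61 ± 0.308 to 6.27 ± 1.29 CPM. The intermediate filament Vim fell from 117 ± 8.36 to 45.0 ± 3.95 CPM. Among 30 cytoskeletal genes and targets of the factor SRF 9 rose and 12 fell, or 12 and 10 by library size alone, and the smooth muscle genes Acta2 and Cnn1 fell from low levels, from 1.603 ± 0.693 to 0.173 ± 0.0530 CPM and from 1.17 ± 0.0995 to 0.206 ± 0.0868 CPM. Of 22 gamma protocadherins 17 rose and 2 fell (17 and 1 by library size alone). Pcdhgc4 fell from 27.2 ± 3.198 to 0.751 ± 0.147 CPM and Pcdhga8 rose from 6.53 ± 1.18 to 21.7 ± 4.34 CPM, but these genes share their last exons and reads may be assigned to the wrong member.

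Genes of RNA processing and export mostly fell. Of 38 SR and hnRNP splicing factors 26 fell and 9 rose, with a median of -0.27. Ptbp2, a repressor of neuronal exons, rose from 31.4 ± 2.65 to 70.8 ± 2.96 CPM, and Clk1, a kinase of SR proteins, from 129 ± 5.34 to 238 ± 19.0 CPM. Of 35 genes of nonsense-mediated and general mRNA decay 20 fell and 8 rose, or 17 and 15 by library size alone, with the exosome subunits Exosc9 and Exosc2 falling from 55.1 ± 0.418 to 29.5 ± 0.860 CPM and from 68.7 ± 1.59 to 40.2 ± 1.15 CPM. Of 25 replication-dependent histone genes, whose mRNAs mostly lack poly(A) tails while the libraries were poly(A)-selected, 7 rose and 3 fell (9 and 0 by library size alone, 7 and 1 without paused replicate 2), against 0 and 10 in WT cells, and the difference was positive for 7 and negative for 0.

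Some of the groups that fell share letters in their promoters that were not used to choose them. The ETS motif CCGGAAG was in 25 of 69 windows of mitochondrial ribosomal protein genes (36.2%), in 12 of 26 of mitochondrial import genes (46.2%) and in 13 of 30 of proteasome genes (43.3%), against 15.5% of all windows. It was also in 22 of 59 windows of cytosolic ribosomal protein genes (37.3%), which were split. Over all tested genes with a window, 45.2% of those with the motif fell and 34.0% of those without. The CCAAT box was in 17 of 19 windows of the unfolded protein response list (89.5%) and in 24 of 33 of the G2 and mitosis list (72.7%), against 38.8% of all. It was also in 15 of 21 windows of the FoxO list (71.4%), where 13 genes rose and 6 fell. In the BMP list, where 9 rose and 9 fell, it was in 11 of 18 (61.1%). Over all genes 36.6% of those with CCAAT and 35.2% of those without fell. Both strands were read, and these shares were not tested.

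Read per transcript, 26317 of 65420 changed (40.2%), with 12886 higher (19.7%) and 13431 lower (20.5%). By library size alone, 20082 were higher and 8725 lower. Of 12132 genes with at least 2 tested transcripts, 2196 (18.1%) had transcripts called in both directions. A change of at least 10 percentage points in a transcript's share of the gene was seen in 561 genes and of at least 20 points in 64, among the 2051 genes with a mean of at least 5 TPM in both groups and transcripts called both ways. Kallisto divides reads between similar transcripts and the spread of that step was not in the test, so single transcripts are less certain than genes.

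In Rps24, which encodes a protein of the small ribosomal subunit, the gene's output moved between protein-coding transcripts of 468 and 519 bases. Transcript Rps24-201 made up 48.3, 47.6, 47.1 and 47.8 percent of the gene's TPM in normal and 13.7, 13.7, 17.8 and 17.0 percent in paused libraries. For Rps24-202 the shares were 39.7, 39.4, 39.1 and 39.5 percent and 79.4, 78.7, 75.4 and 75.1 percent, with log2 fold changes of -1.53 ± 0.11 and 1.06 ± 0.04. Within a culture the shares were close and the cultures did not overlap. In WT cells the share of Rps24-201 went from 44.7% to 17.8%. In Ankfy1, a Rab5 effector of endosomes, the protein-coding Ankfy1-206 went from 67.0% ± 8.88 to 12.2% ± 2.55 and Ankfy1-202, annotated as a target of nonsense-mediated decay, from 19.7% ± 7.53 to 59.4% ± 1.42.

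In Use1, a SNARE between endoplasmic reticulum and Golgi, Use1-203 went from 38.7% ± 4.82 to 11.5% ± 1.32 and Use1-201 from 19.5% ± 3.91 to 54.4% ± 1.94. In Rai1, a dosage-sensitive transcription regulator, the non-coding Rai1-206 went from 35.8% ± 6.90 to 5.59% ± 0.894 and the protein-coding Rai1-203 from 12.4% ± 3.12 to 47.2% ± 1.89. Acot7-202 of the acyl-CoA thioesterase gene went from 94.0% ± 0.917 to 62.6% ± 6.06 and Acot7-206 from 5.49% ± 0.584 to 33.6% ± 5.96. In Map3k10, a kinase upstream of JNK, Map3k10-204 went from 62.9% ± 1.43 to 31.5% ± 1.67 and Map3k10-201 from 20.7% ± 1.46 to 50.8% ± 2.25. The 4 and 4 libraries did not overlap for these, as the rule required. Bbs2, Pou6f1, Camta1 and Serp2 complete the 10 genes, and their transcripts include retained introns and decay targets. In Bbs2, a gene of the cilium, the retained-intron transcript Bbs2-202 went from 57.3% ± 0.745 to 19.4% ± 4.12 and the protein-coding Bbs2-201 from 36.5% ± 0.814 to 60.4% ± 4.91.

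**Figure D3:**
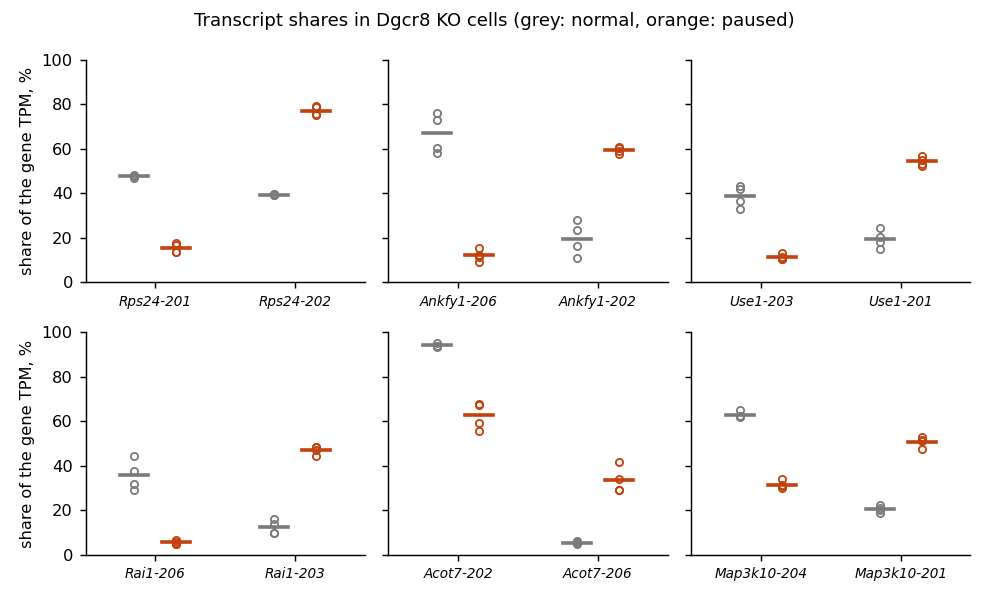
Share of the gene's TPM taken by a pair of transcripts of Rps24, Ankfy1, Use1, Rai1, Acot7 and Map3k10 in the 8 KO libraries, with open circles for libraries (grey normal, orange paused) and bars for means of 4. In each pair the left transcript lost share and the right one gained it.

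The response also followed gene length and level. Among protein-coding genes tested, 16945 in all, the shortest quintile by transcript length (median 807 bases) had a median log2 fold change of -0.15, with 25.6% higher and 41.7% lower. The longest quintile (median 5755 bases) had a median of 0.17, with 45.0% higher and 25.7% lower. The count-weighted mean transcript length was 3338 ± 74.7 bases in normal and 3559 ± 40.7 bases in paused libraries (SD, n = 4; exact permutation test, two-sided, p = 0.0286, and 0.0762 adjusted over 8 measures). In the most abundant quintile 54.6% of genes fell and 26.6% rose, with a median of -0.15. In the least abundant 18.0% fell and 25.05% rose, with a median of 0.14. The share that rose was largest in the third quintile of level (45.6%). Fewer genes were called at the lowest level, and the part of detection in these shares was not tested. The shortest and longest quintiles had medians of -0.12 and 0.18 in WT cells. Length and level are related to each other and to gene class, and their separate parts were not tested.

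**Figure D4:**
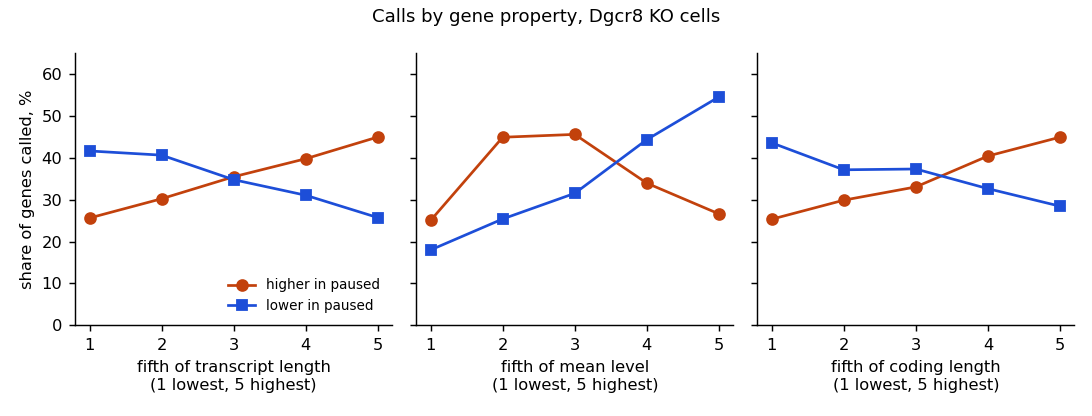
Share of protein-coding genes called higher (orange circles) or lower (blue squares) in paused KO cells, in percent, by quintile of transcript length, mean level and coding length. The share higher runs from 25.6% in the shortest to 45.0% in the longest quintile of transcript length. The share lower runs from 18.0% to 54.6% with level, and fewer genes were called at the lowest level.

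Set against WT cells, the KO response shared most of its direction and differed in size for many genes. Among the 9660 genes whose mean log2 CPM over the KO libraries reached 3, the log2 fold changes in KO and WT cells had a Pearson correlation of 0.71 and a Spearman correlation of 0.72 across genes, which are not independent replicates. Over all 18944 genes tested the Pearson correlation was lower, at 0.58. Of the rises in KO cells, 4140 were also rises in WT cells (63.5% of those in KO and 65.7% of those in WT cells). Of the falls 3836 were shared (61.8% and 73.7%). Opposite calls were made for 304 genes that rose in KO and fell in WT cells and for 682 that fell in KO and rose in WT cells. The test of the difference passed for 7936 genes (41.9%), 3293 positive and 4643 negative. Of the 1749 genes that rose by at least 1 in KO cells, 859 had a positive difference, 831 none past the threshold and 59 a negative one.

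Of the 30 genes chosen for the largest rises and falls in KO cells, all but Crebrf and Phlda2 had a called difference in the direction of the KO change, a count that choosing by size in KO cells favours. Eif4g3 rose by 2.32 ± 0.07 in WT cells, a difference of 0.94 ± 0.10 (adjusted p = 5.6e-07), and for Sox21 the difference was 2.46 ± 0.29. Zbtb10 did not pass the test in WT cells (-0.13 ± 0.11, difference 2.15 ± 0.15). For Crebrf (0.18 ± 0.11) and Phlda2 (-0.05 ± 0.19) a difference was not detected. Pdk1 fell in KO and rose in WT cells (0.77 ± 0.04), a difference of -1.60 ± 0.06. Rragd rose in KO cells and did not pass the test in WT cells (-0.12 ± 0.14, difference 1.22 ± 0.21). Ddit4 fell by less in KO than in WT cells (-2.83 ± 0.25, difference 1.58 ± 0.34).

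**Figure D5:**
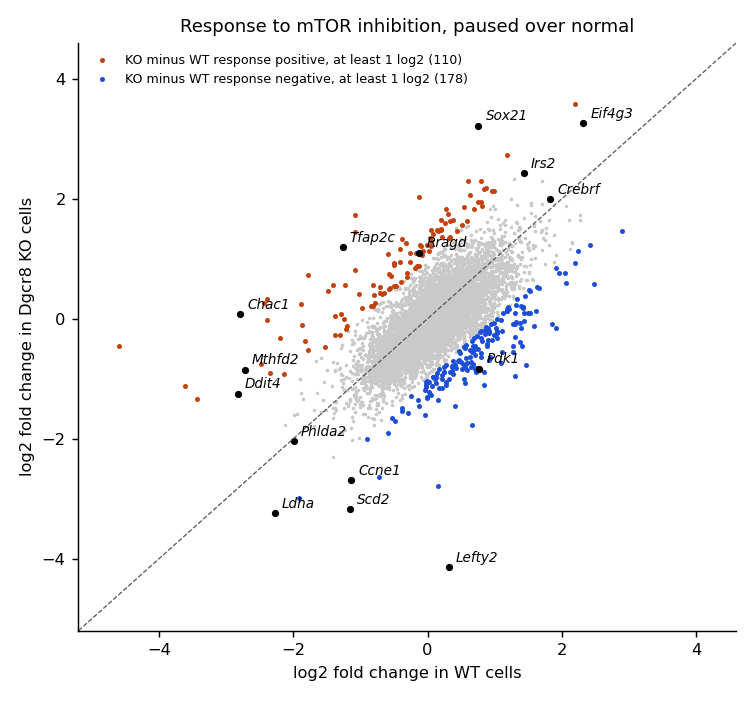
Log2 fold change of paused over normal culture in Dgcr8 KO cells against the same in WT cells for 9660 genes, with the dashed line marking equal response and black points the genes labelled. Orange and blue mark the 110 and 178 genes whose response differed by at least 1 with a positive or negative test of the difference.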

How the data were processed

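RNA-seq of poly(A)-selected RNA from 16 libraries, 4 for each genotype and culture, was deposited as 1 kallisto table for each library. Per the file headers these hold estimated counts and TPM for each transcript, with lengths and effective lengths in bases. Kallisto and the build GRCm38 are named in the submitters' processing notes, and the version and index are not given in the sources used here. From the deposited estimated counts, 116728 of 118489 transcripts were matched to GENCODE genes and summed, and the unmatched rest held 0.657% to 0.712% of a library's counts. Sums were rounded.

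Genes and transcripts were fitted in edgeR 4.0.16 (R 4.3.3) with filterByExpr at a minimum count of 10, TMM scaling and the robust quasi-likelihood test over all 16 libraries, 1 mean for each group, no block, and Benjamini-Hochberg adjustment over all 18944 genes or 65420 transcripts. The SE is the absolute log2 fold change over the root of F. DESeq2 1.42.0 and other scalings and filters were alternatives. Shares of a gene's output come from the deposited TPM. On simulated data for the KO comparison of 18654 genes, 70% of genes changed by 0.5 on the log2 scale and 96% of those changed by 1 were recovered, and 4.6% of calls were false. For 63165 transcripts the recovery was 24% and 53%. The simulation changed only a small part of the features, all of them well counted, whereas 67.2% of genes changed in the data. These rates therefore need not hold for the data, least of all for low genes.

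Named genes are the 15 largest rises and 15 largest falls among called protein-coding genes whose mean log2 CPM reached 3 and whose libraries did not overlap, the 8 largest gains and losses of CPM, up to 3 members of each list with the largest called change and at least 1 CPM, a fixed set, and for transcripts the 10 genes with the largest change in share. Predicted genes, Rik names, clustered protocadherins and the Zscan4 family stayed out of the ranked parts. Some genes that the rule selects are not reported here. The members and lists were chosen with earlier results of these data known.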

Additional observations from a re-analysis of the deposited data

Results flagged for a closer look

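Of 214 genes examined among those named in the report, 164 had a called difference between the KO and WT responses. The 25 whose difference reached 1.5 on the log2 scale, a size set after the data were seen, are given here as the KO minus the WT change. Positive differences were those of Chac1 (2.87), Pcdhga8 (2.81), Hhip (2.53), Sox21 (2.46), Tfap2c (2.46), Dsc2 (2.17), Zbtb10 (2.15), Dio3 (2.09), Mthfd2 (1.87), Nova2 (1.70), Id2 (1.67), Ddit4 (1.58) and Klhdc7a (1.55). Negative differences were those of Lefty2 (-4.45), Pcdhgc4 (-4.18), Lefty1 (-2.94), Acta2 (-2.94), Lef1 (-2.19), Scd2 (-2.02), Slc16a3 (-1.93), Bhlhe40 (-1.79), Cnn1 (-1.69), Larp1b (-1.67), Pdk1 (-1.60) and Ccne1 (-1.55). Over all genes tested, 653 differed by that much. Pcdhga8 and Pcdhgc4 share exons, and Acta2 and Cnn1 are low.

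Of 444 sets of 4 libraries examined, 16 (3.6%) had a library far from the other 3, where chance gives about 5%. In normal libraries these were Akt1 in replicate 1 (46.5 CPM, the others 43.7 to 44.0), Tbx3 in replicate 1 (278 CPM against 302 to 306), Hars in replicate 2 (143 CPM against 145.5 to 146), Taf7l in replicate 2 (2.55 CPM against 2.13 to 2.18), Trib2 in replicate 2 (0.607 CPM against 1.15 to 1.26) and Cnn1 in replicate 4 (1.32 CPM against 1.12 to 1.13). In paused replicate 1 they were Col1a1 (0.906 CPM against 0.710 to 0.743), Ctsa (103 CPM against 115 to 117), Esrrb (1135 CPM against 1165 to 1169), Hspa1a (2.16 CPM against 1.71 to 1.76) and Mturn (27.5 CPM against 26.1 to 26.3). Lin28b was low in paused replicate 2 (5.94 CPM against 7.14 to 7.37). Paused replicate 3 stood apart for Arrdc4 (52.1 CPM against 53.7 to 53.8), Eef1a1 (11320.0 CPM against 10520.0 to 10640.0), Rps27l (89.8 CPM against 84.5 to 85.2) and the share of counts in cytosolic ribosomal protein genes (6.35% against 5.95% to 6.02%). Several of these gaps are small beside the change between cultures.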

How the results depend on the processing

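The number of genes called in KO cells stayed between 11933, with protein-coding genes alone, and 12922 over 17 alternatives, of which leaving out 1 library gave 12116 to 12353 and DESeq2 12754. Of the genes called, DESeq2 shared 98.7%, RLE size factors 99.5% and library size alone 87.7%. Calls of a difference between genotypes ranged from 7075 to 8225. Only KO libraries were left out in turn, so the dependence of these differences on single WT libraries was not tested. The WT normal libraries split into replicates 1 and 2 against 3 and 4. Between pairs of libraries, the median chi-square of gene counts was 9.274 to 12.99 across this split and 2.441 and 2.07 within it. Among pairs within a KO group it was at most 5.579. Between KO normal replicates 1 and 2 and replicates 3 and 4 it was 3.49 to 5.579, and within these pairs 2.706 and 1.916. Between KO paused replicates 1 and 3 and replicates 2 and 4 it was 3.149 to 4.992, and within these pairs 2.346 and 2.12. The KO groupings were made after the values were seen. The WT normal libraries enter every difference and the shared spread. The largest dependence was on scaling. By library size alone, 20082 transcripts were higher and 8725 lower, 8979 of them by at least 1 on the log2 scale upward and 2705 downward, against 12886, 13431, 5412 and 4471 with TMM, and the transcript median moved from 0.05 to 0.30. Among named genes Pou5f1 turned to 0.11 and Max to 0.013 by library size alone. Over all alternatives 4637 values of named genes kept their direction and side of the threshold, 32 lost and 4 gained the call, and of the counts of list members 64 moved by over 1.5 times. With protein-coding genes alone 51.3% of called differences were positive, against 41.5%.

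Leaving out 1 library, the paused minus normal difference ranged from -1.98 to -0.864 points in the share of the 100 most abundant genes, from 399.5 to 426.5 in genes with at least 1 CPM, from 0.576 to 0.709 points in the share of ribosomal protein genes, from 188.2 to 248.5 bases in mean transcript length, and from -2.21 to -0.957 points in the share of Gm19220. Without normal replicate 3, these 5 measures had an adjusted p of 0.0457 (exact permutation tests, two-sided). Before adjustment each was 0.0286, the smallest that 3 against 4 allows. Among normal libraries the one left out had the lowest share of Gm19220 (0.517%) and of the 100 most abundant genes (17.7%).

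Replicate numbers are shared by the groups. The correlations of deviations within numbers were 0.10, 0.42, -0.06 and -0.23, and those between different numbers ran from -0.50 to 0.40. Since these ranges overlap, they cannot decide whether the numbers pair the libraries. With the replicate block 12648 genes, 7815 differences and 24085 transcripts were called, and with only the 8 KO libraries 12832 genes without and 12771 with the block. For transcripts DESeq2, length-scaled counts, protein-coding genes alone and the fits of only the 8 KO libraries were not run. The spread of kallisto's assignment between transcripts and copies of a gene was not measured, and how far depth limits the calls of low genes was not tested.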

Other observations

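Few genes of the 2-cell-like state rose in paused KO cells, and the share that fell was near that of all genes. Of 23 tested, 8 fell (34.8%, against 32.8% of all genes) and 1 rose (4.35%, against 34.4%), while 14 were not called. Their median was -0.97, and the difference from WT cells was negative for 6 and positive for 1. Members of the Zscan4 family are near-identical copies, so their counts are uncertain. In the Notch pathway 8 of 21 genes rose and 6 fell. The ligand Dll1 rose from 0.767 ± 0.0568 to 1.63 ± 0.398 CPM and the glycosyltransferase Lfng from 0.630 ± 0.0582 to 1.44 ± 0.247 CPM, both from low levels, while its relative Mfng fell from 6.45 ± 0.850 to 2.88 ± 0.295 CPM. In LIF signalling the feedback inhibitor Socs1 fell from 3.45 ± 0.302 to 1.76 ± 0.206 CPM.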
